A study of Homo sapiens with 6 samples.

Results

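This comparison took the 4 samples of NCI-H2023 cells that received a microRNA mimic as 1 group and set them against the 2 samples that received the control RNA, which together are all 6 samples of the series. Samples were chosen by their titles alone, and every named gene on the array was compared. NCI-H2023 is a human lung adenocarcinoma cell line. The pooled group held 2 samples with a mimic of miR-29a-3p and 2 with a mimic of miR-223-3p, each lettered A and B. All 6 were reverse transfected with a lipid reagent at 0.5 nM of RNA, and the medium was changed at 24 h, per the labels' protocols. The titles name the control a mimic control, whereas the protocol names a negative control siRNA, and no time of harvest is given. Whether A and B were separate cultures is not given, so p-values reflect only the scatter of these samples, and that scatter may be technical. No sample without a transfected RNA was analysed here, so a response shared by the mimics and an effect of the control RNA itself cannot be told apart.

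A microRNA is loaded into an Argonaute protein and guides it to messenger RNAs that pair with its seed, the short stretch near its 5′ end, after which those messengers are translated less and often degraded. Mimics of microRNAs with different seeds are therefore expected to have mostly different direct targets, while both occupy the same Argonaute proteins and both are short double-stranded RNAs when they enter the cell. miR-29 is known for targeting collagens and other matrix genes and enzymes of DNA methylation and demethylation. miR-223 is best known from myeloid cells, where it limits granulocyte activation.

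The mature sequences of both microRNAs are shown because the comparison pools them although their seeds differ. The letters are from RefSeq (GRCh38.p14), 5′ to 3′, with the seed, bases 2 to 8, in capitals.
hsa-miR-29a-3p: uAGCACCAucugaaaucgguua
hsa-miR-223-3p: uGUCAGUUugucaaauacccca
The first is encoded on chromosome 7, 130876748 to 130876769, minus strand, and the other on chromosome X, 66018937 to 66018958, plus strand. Aligned from the 5′ end without gaps, they had the same base at 10 of 22 positions and at 2 of the 7 seed positions. How much of either mimic entered the cells is not known from these values.

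Values are log2 signals of 17687 genes. The epithelial markers KRT8, KRT18 and KRT7 gave signals of 16.31 to 17.43 in the 6 samples and EPCAM 10.16 to 11.54. NKX2-1, NAPSA, SFTPB and SFTPC, which mark the lung lineage, gave 3.26 to 5.14, below the array medians of 6.54 to 6.58. The leukocyte marker PTPRC gave 4.27 to 4.89 and the endothelial marker PECAM1 2.75 to 3.85. The fibroblast-type collagen COL1A2 gave 7.5 to 7.92, above the array medians. The other fibroblast markers, COL1A1, DCN, LUM and PDGFRB, gave 3.1 to 5.13, below them. The globin HBA1 gave 5.87 to 7.07, but the erythroid markers HBB and ALAS2 gave 3.24 to 4.08. Across genes, the SD of the difference between arrays was 0.337 to 0.374 (log2) within a group, 0.384 to 0.42 between the 2 mimics and 0.358 to 0.404 between a mimic array and a control array. The 2 mimics thus lay about as far from each other as from the control. The number of arrays limits the precision, and in bulk RNA fewer cells of a kind and less RNA per cell cannot be told apart.

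The question was which transcripts differ from the control in both mimic groups. Signals were about 2-fold higher with both mimics for NT5E, the ecto-nucleotidase that makes adenosine from AMP outside the cell, for GNPNAT1, an acetyltransferase in the synthesis of the sugar donor UDP-GlcNAc, and for TBPL1, a relative of the TATA-binding protein. They were about 2-fold lower for CFI, the protease that inactivates complement, DIXDC1, a protein of Wnt signalling, and NPY1R, a neuropeptide Y receptor. None of them passed limma's moderated test with a constant prior, in which the 4 mimic samples are 1 group and the difference between mimics counts as spread. That test called 0 of 17687 genes (0%), with a lowest adjusted p of 0.299. An unadjusted p under 0.05 was found for 1057 genes (5.98%), 519 of them higher (2.93%) and 538 lower (3.04%). With no difference at all, a share of about 0.05 of the genes would be expected under that threshold. NT5E and GNPNAT1 passed when the prior variance followed the signal level, which is called the intensity trend below, and that fit called 2 genes (0.0113%).

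Few genes differed by much. In all, 20 genes differed by 2-fold or more between the pooled means, 10 higher and 10 lower, and in each of them the 4 mimic samples lay on one side of both control samples. At 1.5-fold or more there were 184 genes higher and 232 lower, of which 141 and 163 had no overlap of samples. In the pooled mean, 8717 of 17687 genes lay above control and 8970 below. Over all genes, the 4 mimic samples lay above both control samples for 1332 genes (7.53%) and below them for 1216 (6.88%). These values are the background for the counts given below. The median size of the pooled change was 0.147 (log2), against 0.185 for the difference between the mimics. The median SD was 0.141 for the 2 control samples and 0.222 for the 4 mimic samples.

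NT5E (gene ID 4907, GRCh38 chromosome 6, 85450083 to 85495784) measured 11.21 and 11.16 in control A and B, 12.3 and 12.35 with miR-29a-3p and 12 and 12.2 with miR-223-3p. The controls were almost equal, and all 4 mimic samples lay above them. The pooled means were 11.19 ± 0.0354 (SD, n = 2) and 12.21 ± 0.155 (SD, n = 4), a change of 1.03 with a standard error of 0.168, or 2.04-fold. In limma the constant prior gave it an adjusted p of 0.333 and the intensity trend 0.0232. The mimics differed from each other by 0.23 (95% interval -0.18 to 0.63).

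GNPNAT1 (gene ID 64841, chromosome 14, 52775193 to 52791607) measured 11.84 and 11.56 in control, 12.72 and 12.64 with miR-29a-3p, and 12.72 and 12.62 with miR-223-3p. The mimic samples were closer to each other (SD 0.0526, n = 4) than the controls were (SD 0.198, n = 2). The change was 0.98 with a standard error of 0.162, or 1.97-fold, with adjusted p of 0.333 and 0.0232 in the same order. With the intensity trend both calls were lost without control A, where the adjusted p was 0.647 for NT5E and 0.245 for GNPNAT1, and without control B, where it was 0.64 for each. They were also lost without miR-29a-3p A (0.079 each), miR-29a-3p B (0.124 each) or miR-223-3p B (0.0557 each). Without miR-223-3p A the adjusted p was 0.0342 for NT5E and 0.0852 for GNPNAT1. With the letter as a block the adjusted p was 0.0702 and 0.0567. The changes themselves stayed between 0.98 and 1.10 for NT5E and between 0.84 and 1.12 for GNPNAT1 when a sample was left out.

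The other genes named as higher were taken by the smallest unadjusted p among genes without overlap of samples, which favours genes that are alike in both mimics. KIAA0040 (chromosome 1, 175156986 to 175192987) measured 5.03 and 5.39 in control, 6.27 and 6.76 with miR-29a-3p and 6.65 and 6.65 with miR-223-3p. Its change of 1.37 (standard error 0.195, 2.59-fold) was the largest in the comparison, and its adjusted p was 0.299 and, with the trend, 0.0966. TBPL1, which takes part in transcription from promoters without a TATA box, measured 8.34 and 8.35 in control, 9.26 and 9.41 with miR-29a-3p and 9.63 and 9.53 with miR-223-3p. Its controls were almost equal, and the change was 1.11 with a standard error of 0.169 (adjusted p 0.299, and 0.0531 with the trend).

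VPS4B, an ATPase that takes apart ESCRT filaments on endosomes, had its controls at 8.59 and 8.97 and its mimic samples at 10.00, 9.88, 9.76 and 9.78, a change of 1.08. CXCL8, a chemokine that attracts neutrophils, was at 7.12 and 7.34 in control and at 8.24, 8.05, 7.98 and 8.03 with the mimics, a change of 0.85. NEDD4, a ubiquitin ligase, was at 6.47 and 6.37 in control and at 7.31, 7.28, 7.30 and 7.11 with the mimics, a change of 0.83. In these 3 genes the lowest mimic sample was well clear of the higher control, though the naming rule required that they not overlap. MIGA1, which acts in mitochondrial fusion, differed by 0.95, and ZFP69B, a zinc finger protein, by 0.90. LURAP1L differed by 1.05, NHLRC3 by 0.85 and CATSPERE, a subunit of the sperm calcium channel, by 0.93. The controls of CATSPERE were at 4.36 and 4.55, under 5, the limit taken here for dim signals. The adjusted p of these 8 genes in limma was 0.333 to 0.57.

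CFI (chromosome 4, 109730982 to 109801999) was at 9.94 and 9.58 in control, 8.55 and 8.62 with miR-29a-3p and 8.70 and 8.62 with miR-223-3p. The mimic samples lay close together below both controls, and the change was -1.14 with a standard error of 0.169, or 2.2-fold lower (adjusted p 0.299, and 0.0531 with the trend). DIXDC1 was at 8.55 and 8.32 in control and at 7.37, 7.38, 7.48 and 7.27 with the mimics, and its mean was -1.06 from control with either mimic. NPY1R was at 9.15 and 9.17 in control and at 7.73, 8.25, 8.27 and 7.82 with the mimics. Here A and B of one mimic lay further apart than the means of the mimics, which differed by -0.06, and the change was -1.14.

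Lower by a like amount were VCAN, the matrix proteoglycan versican, at -1.11, and DOCK8 at -1.04. VCAN was at 6.96 and 7.35 in control, 5.72 and 5.89 with miR-29a-3p and 6.55 and 6.04 with miR-223-3p, so that miR-29a-3p lay lower. The difference between its mimics was -0.49 (95% interval -1.02 to 0.04) and did not pass the test (adjusted p 0.533). PVRIG, an inhibitory receptor of lymphocytes, was at -0.95 and MMD, a membrane protein named from macrophage differentiation, at -0.92. The mimic samples of PVRIG were at 4.84, 4.85, 4.72 and 4.66, under the dim limit of 5. DIO2, the deiodinase that activates thyroid hormone, was at 11.24 and 11.08 in control and at 10.19, 10.48, 10.41 and 10.33 with the mimics. TNNC1, a troponin of heart and slow muscle, differed by -0.80, GASK1B, whose mean signal was in the dim range under 5, by -0.79, CNP, a phosphodiesterase of myelin, by -0.78 and ZNF445, a zinc finger protein, by -0.73. The adjusted p of the 12 lower genes in limma was 0.299 to 0.57.

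**Figure D1:**
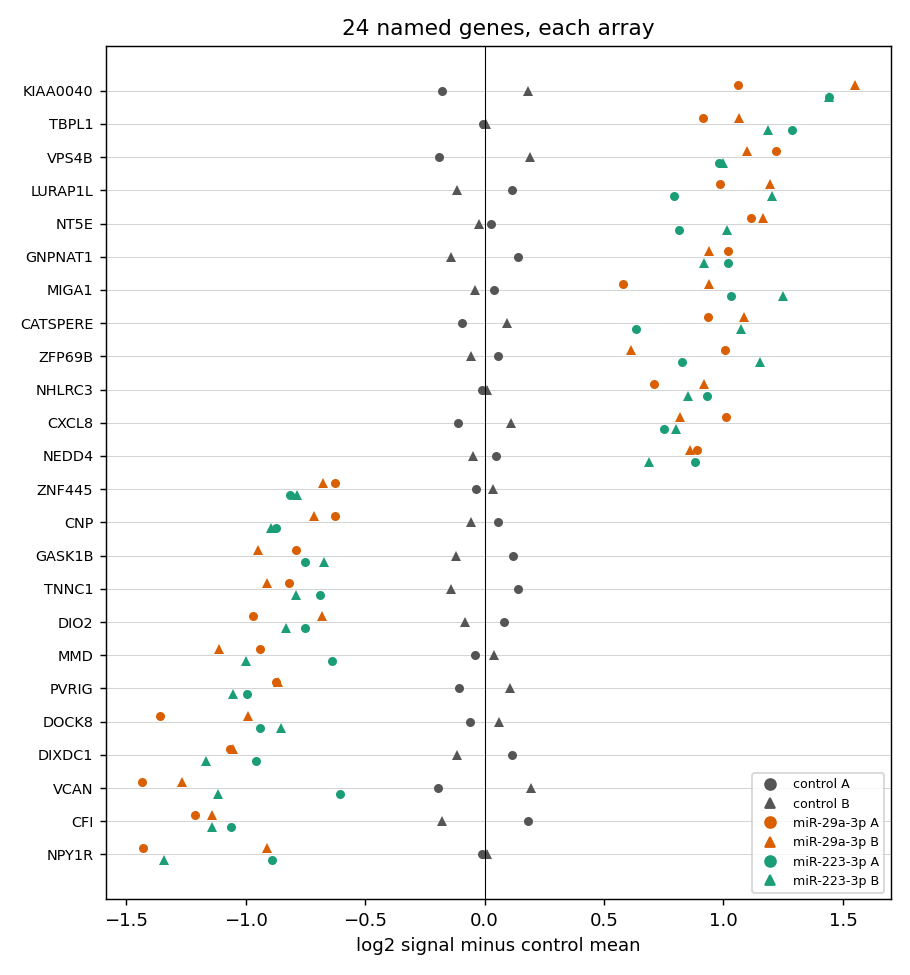
Log2 signal minus the control mean for the 24 named genes (rows) in each of the 6 arrays, with grey for control, orange for miR-29a-3p and green for miR-223-3p, circles for letter A and triangles for letter B. All mimic points of a gene lie on one side of both its control points, which the rule for naming required, and changes run from 0.73 to 1.37 in size.

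Among these 24 genes the mimic means differed from each other by 0 to 0.49, and none of those differences had an unadjusted p under 0.05. This was in part fixed by the choice, since a gene with unlike mimics has a large spread in the pooled group. The comparisons of the single mimics share the control samples. The means of KIAA0040 lay above control by 1.31 (miR-29a-3p) and 1.44 (miR-223-3p), for TBPL1 0.99 and 1.24, and for MIGA1 0.76 and 1.14.

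A fit that gave each mimic its own group and tested the mean of both against control, with the intensity trend, called 54 genes (0.305%), 26 higher (0.147%) and 28 lower (0.158%). Without the trend the same fit called 0, with a lowest adjusted p of 0.277. A gene can be called in it through 1 mimic alone. For 34 of the 54 genes, 19 higher and 15 lower, the smaller of the mimic shifts was at least 0.5 of the larger, a share set after the data were seen. Both shifts subtract the same control samples, and the 54 were chosen by the mean of both shifts, which favours like shifts. The same share was not counted over all genes, so the 34 have no background to be set against. For the other 20 it was less or of opposite sign, with the larger shift from miR-29a-3p in 14 and from miR-223-3p in 6. CP lay just inside that share at 0.502 and KDM5B just outside at 0.482.

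The 34 genes with like shifts held 11 of the 24 above, among them NT5E, GNPNAT1, TBPL1, VPS4B, KIAA0040, CFI, DIXDC1 and NPY1R. Others that were higher were DESI2 (1.03), HEATR1 (0.72), a factor of ribosome synthesis, the pseudokinase STRADB (0.73), which binds the kinase LKB1, and SSU72 (0.79), a phosphatase of RNA polymerase II. The mucin MUC13 (0.74) and the keratin KRT19 (0.67) were higher as well, though MUC13 was called in 0 of the 6 fits with a sample left out. STRADB was at 12.34 and 12.42 in control and at 13.01, 13.18, 13.11 and 13.15 with the mimics. Lower were IFIH1 (-0.79), WWTR1 (-0.81), the cationic amino acid transporter SLC7A2 (-0.84), the glutaredoxin GLRX (-0.69) and the retinol carrier RBP4 (-0.54). WWTR1 encodes TAZ, an effector of the Hippo pathway, and was at 9.67 and 10.08 in control and at 9.21, 9.10, 9.01 and 8.95 with the mimics. Its call too was lost in each of the 6 fits with a sample left out.

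The 20 genes with unlike shifts show what pooling hides. TM4SF4, a tetraspan membrane protein, was 2.21 above control with miR-29a-3p, against 0.42 with miR-223-3p. MANBAL was -0.12 and -1.65 in the same order, TSPAN7, a tetraspanin, -0.20 and -1.65, and CHRAC1, a histone-fold protein of chromatin remodelling, -1.53 and -0.08. DSC2, a desmosomal cadherin, was 0.38 and 1.77. C1QTNF6 was -2.00 and 0.31, so the pooled change of -0.85 describes neither mimic.

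Without control A this fit called 8 genes, all of them among the 54, and without control B it called 17, of which 15 were among the 54. With a mimic sample left out there were 28 and 33 calls without miR-29a-3p A and B, and 52 and 35 without miR-223-3p A and B. GNPNAT1, NT5E, DESI2, TM4SF4 and ELMO1 were called in each of the 6 fits with a sample left out. HEATR1, STRADB, TBPL1, VPS4B, CFI, CP, ARPP19, MANBAL, CHRAC1 and EEF1A2 were called in 5 of them. Of these genes, ARPP19, MANBAL, CHRAC1 and EEF1A2 had unlike shifts, as did TM4SF4 and ELMO1. KIAA0040, NPY1R and SSU72 were called in 3, whereas DSC2 was called in 2 and DIXDC1 and S100A3 in 1. Calls kept in most fits were thus found among genes with like and with unlike shifts. ELMO1, a regulator of Rac, was -1.66 from control with miR-29a-3p, against -0.75 with miR-223-3p.

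**Figure D2:**
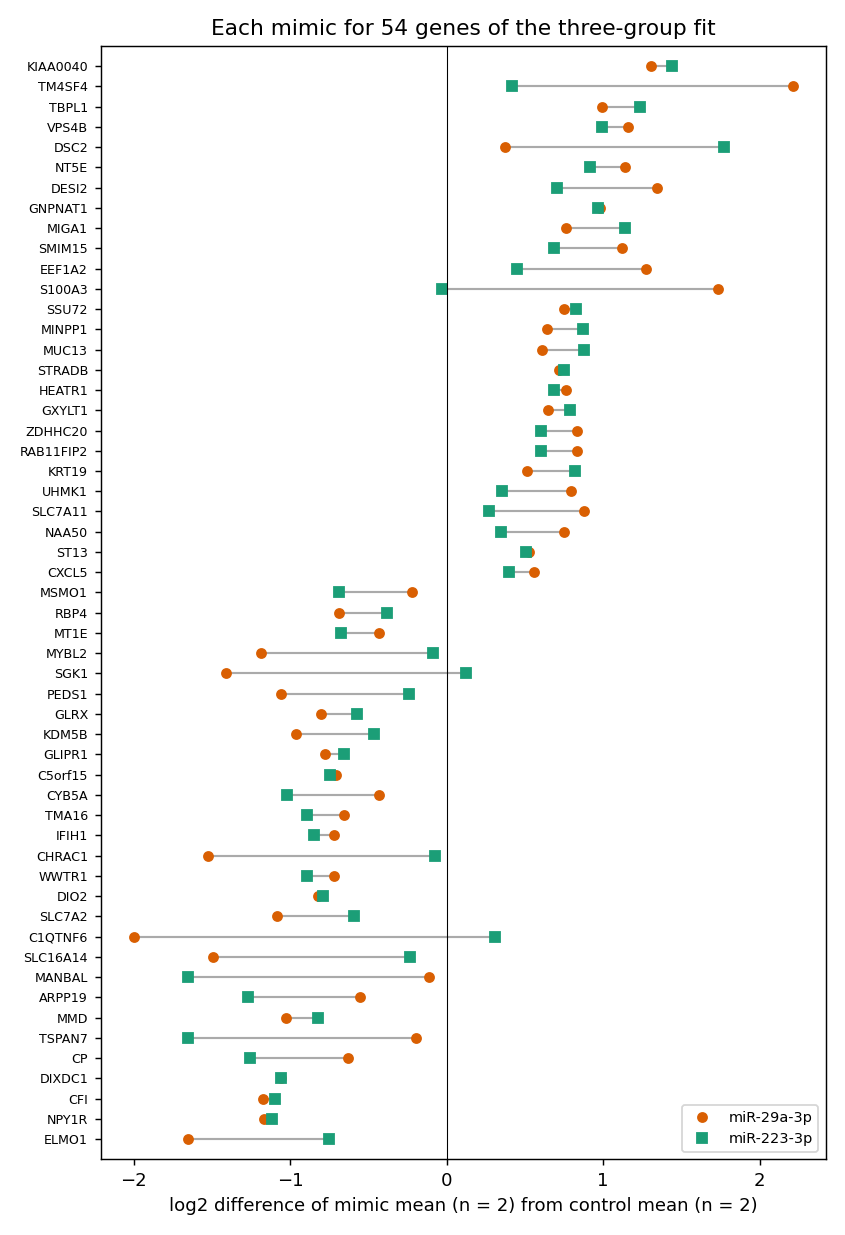
Difference of each mimic's mean from the control mean (log2, n = 2 samples each) for the 54 genes called in the three-group fit with the intensity trend, ordered by pooled change from bottom to top. Orange circles are miR-29a-3p and green squares miR-223-3p, and a long grey line marks unlike shifts, as for C1QTNF6 (-2.00 and 0.31), while NT5E and GNPNAT1 have short lines.

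Some genes lay on opposite sides of control with the 2 mimics. For 720 genes (4.07%) the samples of one mimic lay above and those of the other below both control samples. Tested directly in limma, the mimics differed for 39 genes (0.221%), against 0 for the pooled comparison with the same prior. SLC2A3, a glucose transporter, was at 7.5 and 7.52 in control, 5.57 and 6.14 with miR-29a-3p and 8.56 and 7.99 with miR-223-3p. Its near-identical neighbour SLC2A14 may share its probe signal. C1QTNF6, a secreted C1q-like protein, was at 10.3 and 10.18 in control, 8.21 and 8.27 with miR-29a-3p and 10.59 and 10.51 with miR-223-3p.

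ANKRD1, a nuclear protein induced by YAP, was 1.31 above control with miR-29a-3p and 0.62 below it with miR-223-3p, GLP2R, a gut hormone receptor, 1.16 above and 0.76 below, and FOSL1, a subunit of AP-1, 1.05 above and 0.69 below. The differences between the mimics ran from 1.74 for FOSL1 to -2.42 for SLC2A3, with adjusted p of 0.00878 for C1QTNF6, 0.0303 for SLC2A3 and GLP2R, 0.0411 for ANKRD1 and 0.0664 for FOSL1. Without any one of the 4 mimic samples, or with the letter as a block, none of these 5 differences passed. Their pooled changes were -0.45, -0.85, 0.35, 0.20 and 0.18 for SLC2A3, C1QTNF6, ANKRD1, GLP2R and FOSL1, with standard errors of 0.532 to 0.698. With the intensity trend, 5 differences between mimics passed among the named genes, against 4 with the constant prior.

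**Figure D3:**
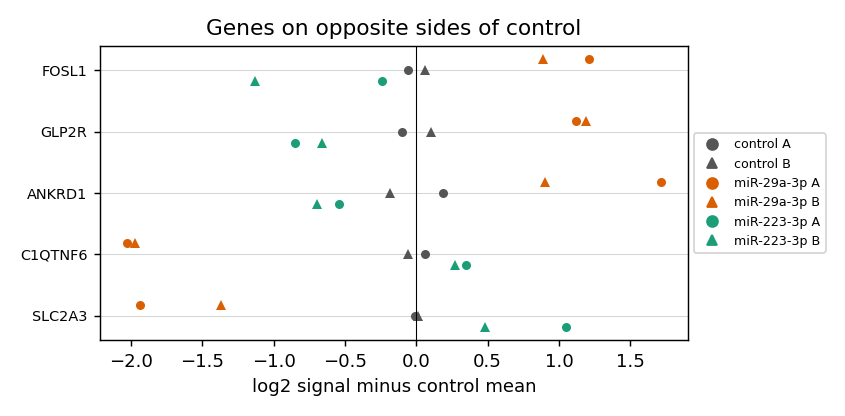
Log2 signal minus the control mean in each array for the 5 genes with the largest differences between mimics among those moved to opposite sides of control, with the colours and symbols of the plot of the 24 genes. The orange and green points lie on opposite sides of the grey control points, as for SLC2A3 at -1.66 and 0.77 on average.

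Known targets of either microRNA were followed as a pair of lists, which were written with earlier results of these data known. Of 35 measured miR-29 targets, 25 lay below control in the pooled mean, as did 8970 of all 17687 genes. The pooled list median was -0.13, against -0.0025 for all genes. The list median was -0.38 with miR-29a-3p, against 0.07 with miR-223-3p. The pooled median was -0.05 without miR-29a-3p A, -0.02 without miR-29a-3p B, -0.23 without miR-223-3p A and -0.20 without miR-223-3p B. No overlap of samples was seen for 4 lower members (11.4%, against 6.88% of all genes) and 1 higher member. ADAM12, a metalloprotease, was at 8.52 and 8.67 in control, 7.48 and 7.18 with miR-29a-3p and 8.10 and 8.15 with miR-223-3p. KDM5B, a histone demethylase, was -0.97 with miR-29a-3p, against -0.47 with miR-223-3p, and TET2, a dioxygenase of methylcytosine, -0.95 and -0.34. For these 3 the shift with miR-223-3p was 0.372, 0.482 and 0.354 of that with miR-29a-3p. KDM5B and C1QTNF6, also on this list, were called in the three-group fit with the trend, and in 1 and 3 of the 6 such fits with a sample left out. TDG, a DNA glycosylase, was -1.47 and 0.12, and the metalloprotease ADAMTS9 -1.19 and -0.10.

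Of 30 measured miR-223 targets, 24 lay below control, with a list median of -0.16 pooled, -0.21 with miR-223-3p and -0.03 with miR-29a-3p. There were 5 lower members without overlap (16.7%, against 6.88% of all genes) and 0 higher ones. PARP1, a poly(ADP-ribose) polymerase, was at 10.51 and 10.50 in control, 10.44 and 10.68 with miR-29a-3p and 9.21 and 9.18 with miR-223-3p. POLR3G, a subunit of RNA polymerase III, was -1.14 with miR-223-3p and 0.23 with miR-29a-3p. By contrast the transcription factor STAT3 was at 13.38 and 13.39 in control and at 12.97, 12.58, 13.06 and 12.66 with the mimics. The nuclear factor I genes NFIA and NFIX were -0.77 and -0.34 with miR-223-3p and -0.34 and -0.63 with miR-29a-3p. MSMO1, an enzyme of cholesterol synthesis, was -0.69 and -0.22 in the order miR-223-3p and miR-29a-3p, and its adjusted p was 0.0257 in the three-group fit with the trend, a call kept in 1 of the 6 fits with a sample left out. The list median was -0.11 without miR-223-3p A. None of these targets passed the constant-prior test in the pooled comparison.

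Of 21 measured genes of microRNA processing and silencing, 10 lay above and 11 below control, with a median of -0.03. Without overlap of samples, 2 were higher (9.52%, against 7.53% of all genes) and 3 lower (14.3%, against 6.88%), and none was called in any of the fits above. The decapping factor DCP1A was at 6.86 and 7.41 in control and at 6.55, 6.22, 6.74 and 6.07 with the mimics. XRN1, the exonuclease that degrades decapped messengers, was at 8.19 and 8.31 in control and at 9.07, 8.52, 9.26 and 8.64 with the mimics. Both had no overlap, in opposite directions. AGO2, the slicing Argonaute, was -0.60 with miR-223-3p and -0.13 with miR-29a-3p, and TNRC6C, a GW protein of silencing, was -0.28 and -0.79 in the same order.

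Of 31 genes of double-stranded RNA sensing and the interferon response, 2 (6.45%) were higher and 2 (6.45%) lower without overlap, close to the background. The lower ones were IFIH1, which encodes the sensor MDA5, and OAS1, an oligoadenylate synthetase. IFIH1 was at 11.10 and 10.81 in control, 10.10 and 10.37 with miR-29a-3p and 10.17 and 10.04 with miR-223-3p, and its adjusted p was 0.573 in limma, and 0.0204 in the three-group fit with the trend, a call kept in 2 of the 6 fits with a sample left out. OAS1 was at 9.37 and 9.46 in control and at 8.76, 8.93, 8.91 and 8.83 with the mimics, with a change of -0.56. IFNB1, an interferon, was higher by 0.50 but lay at 3.37 to 4.12, in the dim range. The interferon-induced gene IFI44L was at 6.98 and 5.76 in the controls alone, a wider gap than its pooled difference of -0.73. The list median was -0.0025 and turned to 0.01 when arrays were centred on their medians.

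Inflammatory genes regulated by NF-kB had 5 of 24 members (20.8%) higher and 2 (8.33%) lower without overlap, with a list median of 0.07. The pooled median was 0.12 without control A, 0.12 without miR-223-3p A, 0.05 without miR-29a-3p B and 0.15 with dim genes left out. CXCL1 was at 8.86 and 9.12 in control, 9.95 and 9.92 with miR-29a-3p and 9.33 and 9.27 with miR-223-3p. CXCL5 was at 15.55 and 15.64 in control and at 16.27, 16.03, 16.13 and 15.86 with the mimics, a change of 0.48 (adjusted p 0.0268 in the three-group fit with the trend, called in 2 of the 6 fits with a sample left out). LCN2, an iron-binding lipocalin, was 1.56 above control with miR-223-3p and 0.16 with miR-29a-3p. PTGS2, the inducible cyclooxygenase, was at 8.59 and 8.09 in control and at 8.02, 7.8, 7.57 and 7.54 with the mimics.

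The bases upstream of CXCL8 and CXCL5 are shown because these chemokines were higher with each mimic and their promoters are textbook targets of NF-kB. Each run covers the 150 bases before the RefSeq transcription start (GRCh38.p14), 5′ to 3′ on the gene's strand. Capitals mark the letters searched on both strands, which were GGAATTTCC for NF-kB, TGACTCA for AP-1, TATAAA for a TATA box, and the interferon-stimulated response element was searched as well; no matches overlapped.
CXCL8, chr4:73740419-73740568, plus strand: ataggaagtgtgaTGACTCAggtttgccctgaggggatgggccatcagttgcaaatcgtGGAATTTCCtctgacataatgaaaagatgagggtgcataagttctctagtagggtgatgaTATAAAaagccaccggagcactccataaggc
CXCL5, chr4:73998678-73998827, minus strand: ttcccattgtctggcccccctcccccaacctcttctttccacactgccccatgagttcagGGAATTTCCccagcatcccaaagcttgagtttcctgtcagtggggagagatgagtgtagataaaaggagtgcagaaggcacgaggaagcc
The NF-kB letters began 91 bases before the start of CXCL8 and 90 before that of CXCL5. Among the promoter windows of RefSeq genes, 129 of 27305 (0.472%) held these letters. So did 8 of 24 (33.3%) windows of the NF-kB list and 1 of 23 (4.35%) of the named genes, which was CXCL8. That list was written from genes known to be regulated by NF-kB, CXCL8 among them, so its share is no result of these data. The windows counted here reach further upstream than the runs above, and those of the NF-kB list include TNF, which was not measured. AP-1 letters were in 3 of 23 windows of the named genes (13%), those of NEDD4, CXCL8 and DIO2, against 4.92% of all windows, and TATA letters in 3 of 23 (13%) against 12%. The letters of the interferon-stimulated response element were in 1 of 23 (4.35%), that of CATSPERE, against 3.65%, and in neither run above. A match is a description of letters and not a bound site.

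Epithelial and junction genes had 5 of 28 members (17.9%) higher and 1 (3.57%) lower without overlap, against 7.53% and 6.88% of all genes. Their median was 0.11 pooled, 0.04 with miR-29a-3p, against 0.19 with miR-223-3p. The pooled median was 0.04 without control A, 0.07 without control B, 0.17 without miR-29a-3p A and 0.05 without miR-223-3p A. KRT19 was at 11.86 and 12.25 in control, 12.57 and 12.57 with miR-29a-3p and 12.90 and 12.85 with miR-223-3p (adjusted p 0.0158 in the three-group fit with the trend, called in 3 of the 6 fits with a sample left out). ESRP1, a splicing regulator of epithelia, differed by 0.92 but ranged from 4.44 to 5.77 over the mimic samples. PKP2, a desmosomal plaque protein, was at -0.67. The list of desmosome, cornified and uroplakin surface genes had 3 of 25 higher and 1 lower (12% and 4%), with UPK3B at 1.87 with miR-223-3p and -0.15 with miR-29a-3p. S100A3, a calcium-binding protein, was at -0.03 and 1.74 in the same order.

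Mesenchymal and TGF-beta genes had 3 of 23 higher and 1 lower (13% and 4.35%), with LOXL1, a lysyl oxidase of elastic fibres, at 5.27 and 5.64 in control and at 6.80, 7.01, 5.99 and 6.77 with the mimics. Of 23 YAP and TAZ targets, 3 were higher and 1 lower (13% and 4.35%), with NT5E at 1.03 and LATS2, a Hippo kinase, at -0.58. MAPK output genes had 2 higher and 2 lower of 24 (8.33% each). Metallothionein and metal transport genes had 5 of 23 lower and 2 higher (21.7% and 8.7%), against 6.88% and 7.53% of all genes. Their median was -0.17, and -0.085 without control B. CP, the ferroxidase ceruloplasmin, was at 11.33 and 11.19 in control, 10.74 and 10.52 with miR-29a-3p and 10.04 and 9.97 with miR-223-3p (adjusted p 0.00287 in the three-group fit with the trend). MT1E, a metallothionein whose family members may share probe signal, was at -0.56, and its call in the three-group fit with the trend was kept in 1 of the 6 fits with a sample left out.

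Liver-type secreted proteins had 4 of 25 lower and 2 higher (16% and 8%), against 6.88% and 7.53% of all genes. Albumin, ALB, had the lowest pooled difference of all genes, -1.29, but its controls were 8.5 and 7.41, and the difference was -0.75 without control A. Replication-dependent histones lay below control in 23 of 26 members, as did 8970 of all 17687 genes. Of the histones, 5 were lower (19.2%, against 6.88% of all genes) and 1 higher (3.85%, against 7.53%) without overlap. Their list median was -0.19, while the controls themselves lay at -0.175 and 0.175 from their mean, and it was -0.37 without control A and -0.03 without control B. The lowest, H2BC17 and the linker histone H1-5, were at -0.48 and -0.43, and both overlapped the controls. Of 17 G1 control genes, 14 lay below control, with 3 lower and 1 higher without overlap (17.6% and 5.88%, against 6.88% and 7.53% of all genes). CCND1, cyclin D1, was -1.02 with miR-223-3p and 0.19 with miR-29a-3p, while E2F3 was higher by 0.61. Of 30 S phase and mitosis genes, 2 were higher and 1 lower (6.67% and 3.33%) with a median of 0.01.

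Stress and survival lists were mixed. Over all genes, 7.53% were higher and 6.88% lower without overlap of samples. The unfolded protein and integrated stress response had 4 of 24 higher and 3 lower (16.7% and 12.5%), with CHAC1, an enzyme that degrades glutathione, at 1.38 with miR-29a-3p, against 0.46 with miR-223-3p. The cystine transporter SLC7A11 was at 14.21 and 14.12 in control, 15.14 and 14.94 with miR-29a-3p and 14.46 and 14.41 with miR-223-3p. NRF2 genes had 2 higher and 2 lower of 22 (9.09% each), and HMOX1, heme oxygenase, was higher by 0.82. The p53 targets had 1 higher and 3 lower of 17 (5.88% and 17.6%), and the BCL2 family 1 higher and 0 lower of 15 (6.67% and 0%). BAX, a pore-forming member of both lists, was at 11.42 and 11.82 in control and at 11.98, 12.20, 12.11 and 12.07 with the mimics.

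Metabolic and vesicle lists lay near control in the pooled mean. Cholesterol genes had 0 higher and 2 lower of 20 (0% and 10%), and their median of -0.04 joined -0.31 with miR-29a-3p to 0.16 with miR-223-3p. Hypoxia and glycolysis genes had 0 higher and 1 lower of 23 (0% and 4.35%). Lysosome and autophagy genes had 1 higher and 0 lower of 21 (4.76% and 0%), the higher one being LAMP2, a lysosomal membrane protein, at 9.86 and 9.54 in control and at 10.26, 10.30, 10.23 and 10.27 with the mimics. Lung lineage genes had 1 higher and 1 lower of 21 (4.76% each).

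Markers of cells that the culture should lack were followed for comparison, beside 7.53% of all genes higher and 6.88% lower without overlap. Leukocyte markers had 2 higher and 0 lower of 16 without overlap (12.5% and 0%), fibroblast and endothelial markers 1 higher and 2 lower of 15 (6.67% and 13.3%), and erythroid markers 2 higher and 0 lower of 8 (25% and 0%). The erythroid pair was HBB, at 3.55 to 4.08 in the 6 samples, and HBA2, at 6.08 to 7.05. The globin genes HBA1 and HBA2 are near-identical and may share probe signal. Over these 3 lists the medians were -0.05, -0.09 and 0.17.

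**Figure D4:**
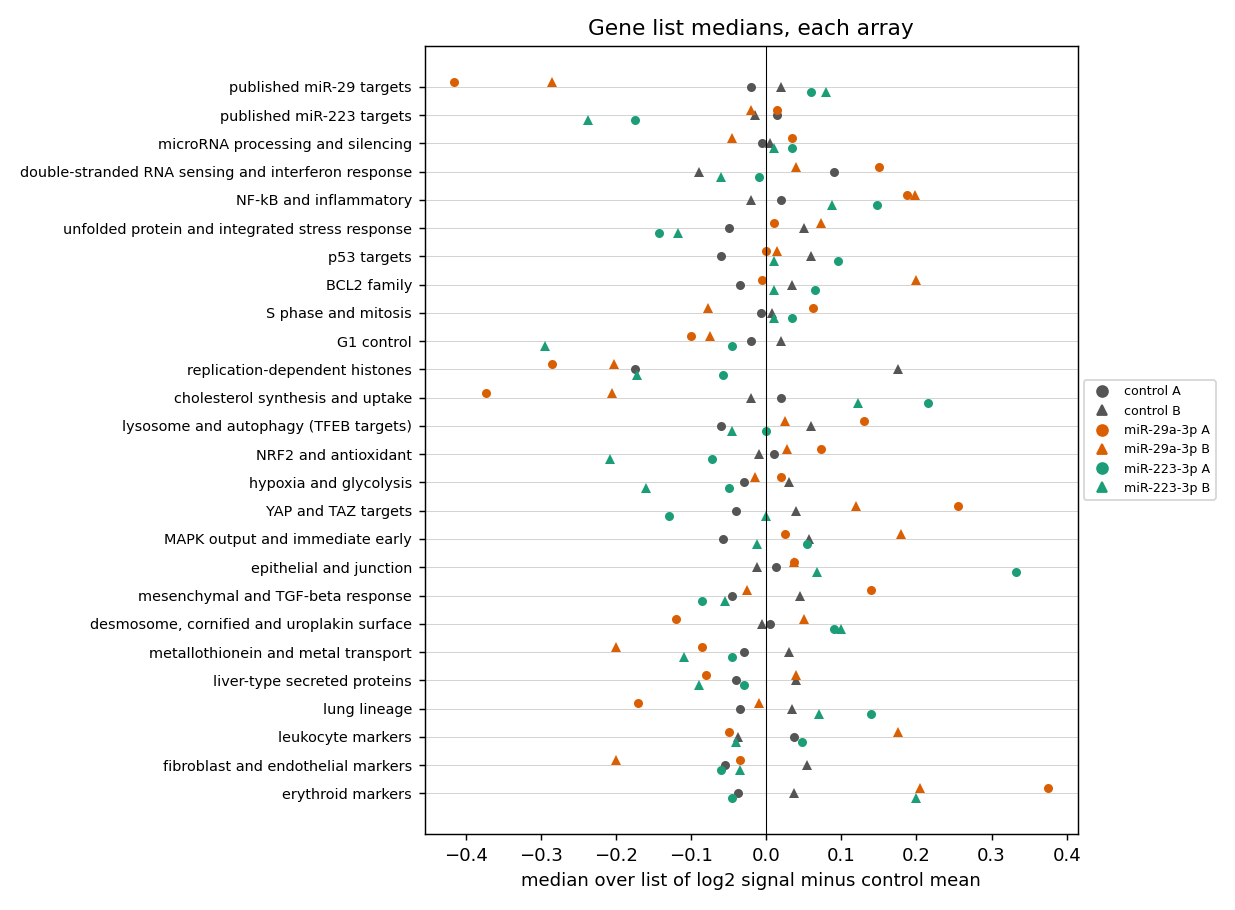
Median over each gene list (rows) of the log2 signal minus the control mean, for each of the 6 arrays, with grey for control, orange for miR-29a-3p and green for miR-223-3p, circles for letter A and triangles for letter B. List medians lie within 0.42 of control, the miR-29 target list is lower in the orange points only (-0.42 and -0.29), and cholesterol genes lie on both sides of control.

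Of the 26 list medians, 13 had opposite signs in the 2 mimics. Among others, the histone, metallothionein and G1 lists lay below control with each mimic, at -0.24, -0.21 and -0.07 with miR-29a-3p and -0.13, -0.05 and -0.17 with miR-223-3p. By sample, however, the histone medians of miR-223-3p A and B (-0.0575 and -0.1725) lay within those of the controls (-0.175 and 0.175). The G1 medians of miR-223-3p A and B were unlike, at -0.045 and -0.295.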

How the data were processed

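Array signals were measured from biotin-labelled RNA of the 6 samples, per the labels' protocols. The deposited log2 values were made by the authors with RMA (version not given in the sources used here; genome build hg38), per the submitters' processing notes. RMA makes array distributions alike, so a change in total messenger RNA cannot be seen. Of 21448 probe sets, 17709 have 1 gene in the platform annotation, 0 have several and 3739 are unnamed here. All 17709 identifiers matched RefSeq (GRCh38.p14). The probe set with the highest mean was kept per gene, which gave 17687 genes.

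The pooled contrast used limma 3.58.1 (R 4.3.3) with a linear model and empirical Bayes (constant prior, 4 residual degrees of freedom, Benjamini-Hochberg over all genes at 0.05). Differences between mimics came from a fit of 3 groups. The procedure was checked on simulated data.

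Named are 12 higher and 12 lower genes without overlap of samples, first those past the test, then past it with the intensity trend, then by smallest p. Added are the 5 genes with the largest difference between mimics on opposite sides of control, up to 4 members of each of 26 lists and up to 6 published targets of each microRNA. Other genes of the 54, and the promoter letters, were chosen after their values were seen. Members and lists were chosen with earlier results of these data known. Alternatives were another prior, model, normalization, filter, threshold, the replicate letter as a block and leaving out each sample. With 1 control left, its spread is assumed to equal that of the others.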

Additional observations from a re-analysis of the deposited data

Results flagged for a closer look

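The values of the 4 mimic samples were checked for 1 sample far from the rest in the 24 named genes and the 26 lists, where chance gives about 1 in 20. For NEDD4, miR-223-3p B at 7.11 lay apart from 7.28 to 7.31, with a gap of 0.85 of the range. The median of the p53 targets was 0.095 in miR-223-3p A against 0 to 0.015 in the others (0.842 of the range). For epithelial and junction genes miR-223-3p A was at 0.33 against 0.04 to 0.07 (0.898). For fibroblast and endothelial markers miR-29a-3p B was at -0.20 against -0.06 to -0.035 (0.848).

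The effects of the mimics against the same control differed by a direct test for SLC2A3 (-2.42), C1QTNF6 (-2.31), ANKRD1 (1.93) and GLP2R (1.91), given as miR-29a-3p minus miR-223-3p in log2.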

How the results depend on the processing

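The count of 0 genes in the pooled comparison stayed 0 in 16 of 20 alternatives and was 2 with the intensity trend, 54 in the three-group fit with the trend, 2 for miR-29a-3p alone and 191 at an unadjusted p under 0.01 with at least 1.5-fold. With a sample left out, the 2 calls of the trend became 0 to 1 and the 54 became 8 to 52, and fewer samples are part of how these fits are built. Over all genes the letters A and B share little (correlations of the A minus B differences between groups 0.0039 to 0.134). Such correlations cannot tell whether the letters pair samples for a part of the genes. With the replicate block the pooled count was 0, with the trend added it was 0, and the three-group fit with the trend called 112, a fit added after seeing the data.

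The naming rule chose 11 of the same 24 genes with the trend, 11 in the three-group fit, 11 in that fit with the trend and 11 with the block and trend, 1 with miR-29a-3p alone and 3 with miR-223-3p alone, and 8 to 15 with a sample left out. The 4 called differences between mimics became 0 with the replicate block and 0 to 0 with a mimic sample left out. With the intensity trend 5 such differences passed. The cause of the losses was not tested. None of the 24 genes changed direction in 431 pairs of gene and alternative. The naming rule largely fixed this, since it required all mimic samples on one side of both controls. Of these pairs, 13 passed the test, all with the intensity trend. The sign of 3 of 26 list medians changed with the normalization, and of 12 with a sample left out. Signals near the array background limit dim genes.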
